A study of Saccharomyces cerevisiae with 10 samples.

Results

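Transcript levels in a ptc2 mutant strain of budding yeast, Saccharomyces cerevisiae, were compared with those in a wild-type (wt) strain on 2 of the 10 two-colour arrays of a study of 5 phosphatase mutants, ptc1 to ptc5. The 2 arrays were those titled as ptc2 against wt. Array 1 carried ptc2 cDNA in the red dye Cy5 and wt cDNA in the green dye Cy3, and array 2 carried the dyes the other way round. Of the 6212 open reading frames (ORFs) listed, 4086 (65.8%) had a value on both ptc2 arrays and make up the comparison; 573 had a value on 1 array and 1553 on none.

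Both strains were harvested in log phase from 30 ml of YPD, a rich glucose medium, at 28 °C and an absorbance at 660 nm of 0.6 to 0.8, and 8 µg of total RNA was labelled. The other 8 arrays carried ptc1, ptc3, ptc4 or ptc5 RNA against wt RNA, again with 2 dye-swapped arrays per mutant. The wt RNA is shared by all 10 arrays, so mutant profiles are not independent of each other. Not given in the sources used here were the strain background, the mating type and the form of the mutant allele, and each genotype is represented by 1 mutant strain. According to the design text there were 6 RNA samples and every hybridisation was repeated with the dyes exchanged, and the ptc2 arrays were therefore treated as 1 extract measured 2 times. The titles number the arrays as experiments, so separate extracts remain possible. No difference between ptc2 and wt therefore has a replicate test. An SD given below is that of the 2 dye-swapped arrays (n = 2, technical), and genes are counted by size.

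Ptc2 is a type 2C protein phosphatase, an enzyme that takes phosphate off serine and threonine residues. It is known to act, together with its close paralogue Ptc3, on the osmostress MAP kinase Hog1, on the DNA damage checkpoint kinase Rad53 and on the cell cycle kinase Cdc28. It is also known to act on Ire1, the sensor that splices HAC1 mRNA in the unfolded protein response. Ptc1 acts on Hog1 too and is needed to keep the cell wall integrity pathway low, and Ptc5 acts on pyruvate dehydrogenase in mitochondria.

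Values are the deposited log ratios of ptc2 over wt, read as log2 and centred on each array's median. A value of 1 is then 2-fold higher in ptc2 and a value of -1 is 2-fold lower. Centring mattered for array 2, whose deposited median was 0.23, against 0.025 for array 1 and -0.03 to 0.04 for the 8 arrays of the other mutants. The centred values of the 2 ptc2 arrays correlated with r = 0.488 across the 4086 ORFs, which are not independent replicates, and 61.9% of ORFs had the same sign on both. The median SD between the arrays was 0.164. Most ORFs lay close to wt, with 92.6% of means between -0.5 and 0.5. On array 2 the ratio also moved with gene length (Spearman's rho across ORFs 0.280, against 0.031 on array 1), and the shortest 20% of genes had a median of -0.20 there, against -0.06 on array 1. The part of gene length in the results was not tested, but values centred within 5 classes of gene length are given beside the lists with the shortest genes.

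**Figure D1:**
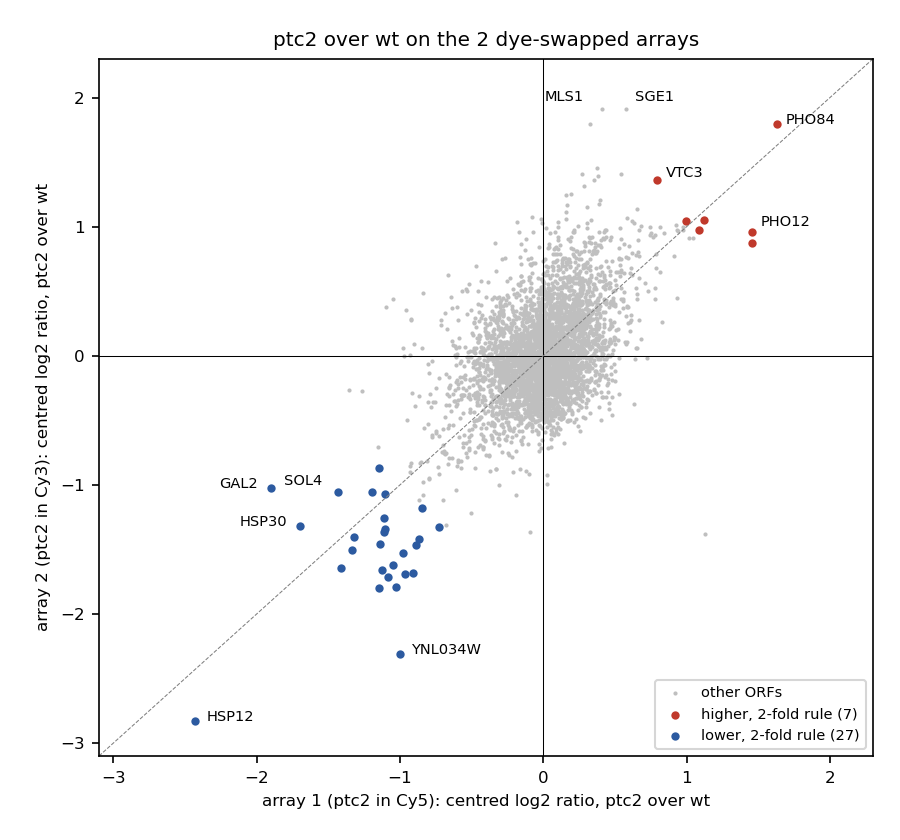
Centred log2 ratio of ptc2 over wt on array 1 (x axis) and array 2 (y axis), 1 point per ORF with both values. The dashed line marks equal values. The 7 ORFs higher and the 27 ORFs lower by the 2-fold rule are coloured; HSP12 lies farthest from wt and PHO84 highest.

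The transcript of the mutated gene was the first check of the labels. PTC2 had a value on array 2 alone, where its centred ratio was -8.09 (-7.86 as deposited), the lowest of any ORF named here. In the other 4 mutants PTC2 lay between -0.12 and 0.23 on the 7 arrays that measured it. With 1 array the strain check rests on a single spot value, and array 1 gave none.

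The other phosphatase genes of the family stayed near wt. PTC3, the paralogue, had 0.13 and 0.05 on arrays 1 and 2, a mean of 0.09 ± 0.06. PTC1 had -0.47 and 0.02, a mean of -0.23 ± 0.35, so the arrays disagreed in sign. PTC5 had -0.03 and 0.48, a mean of 0.22 ± 0.36, again with the arrays apart. PTC6, a mitochondrial member, averaged -0.07 ± 0.05, and PTC7, another mitochondrial member, averaged 0.00 ± 0.06. PTC4 had no value on either ptc2 array. Of the genes beside PTC2 on its chromosome, DOT6, a repressor of ribosome biogenesis genes, had 0.39 and 0.24, TRP2 had 0.06 and 0.10, and IES5 had -0.33 and 0.03. MET6 had 0.37 on array 2 alone, and ILV1 and AIM10 had no value. None of these neighbours met a size rule. Medians of whole chromosomes lay between -0.04 (chromosome 9) and 0.04 (chromosome 5), so no chromosome stood apart.

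**Figure D2:**
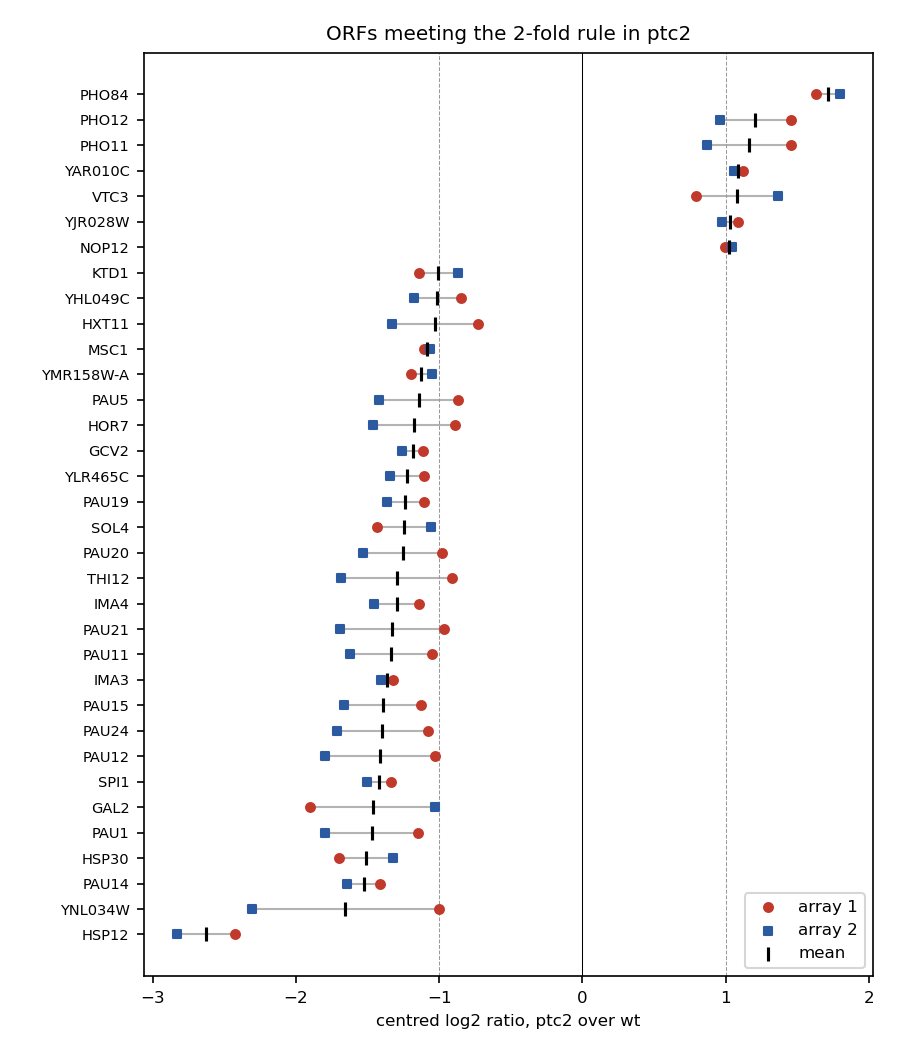
Centred log2 ratio of ptc2 over wt (x axis) of each ORF that met the 2-fold rule (rows, highest first), with array 1 as a circle, array 2 as a square and their mean as a bar. Dashed lines mark 2-fold. The arrays agree closely for PHO84 and MSC1 and lie far apart for YNL034W and GAL2.

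ORFs were counted by a 2-fold rule, which asked for a mean 2-fold or more from wt and for a difference of 1.5-fold or more in the same direction on each array. By it, 7 ORFs were higher in ptc2 (0.171% of 4086) and 27 were lower (0.661%). These counts depend on the scaling: without centring 18 were higher and 22 lower, and on array 2 alone 37 and 36. Near-identical gene copies, which a spotted probe may not tell apart, weigh in both counts. The higher ORFs hold 2 frames of Ty retrotransposons, and the lower ones hold 10 PAU (seripauperin) genes and 2 isomaltase genes. With each of those families counted once, 6 items were higher and 17 lower.

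Of the 7 higher ORFs, 4 were phosphate genes, and the other 3 were the Ty frames and NOP12, given further on. PHO84, the high-affinity phosphate transporter of the plasma membrane, had 1.63 and 1.80 on the 2 arrays, a mean of 1.71 ± 0.12, or 3.28-fold higher in ptc2. PHO12, a secreted acid phosphatase, had 1.46 and 0.96, a mean of 1.21 ± 0.35. Its near-identical copy PHO11 had 1.46 and 0.87, a mean of 1.16 ± 0.41. Since PHO11 and PHO12 may share hybridisation, they count as 1 observation of acid phosphatase. VTC3, a subunit of the vacuolar complex that makes polyphosphate, had 0.79 and 1.36, a mean of 1.08 ± 0.40. All 4 genes were above 1.5-fold on both arrays, which the 2-fold rule already asks for. As the RNA came from whole cultures, more RNA per cell and more cells that express a gene cannot be told apart, here and below.

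The list of targets of Pho4, the transcription factor that phosphate starvation activates, had a median of 0.55 over the 13 of 18 members with both arrays, beside -0.01 over all 4086 ORFs. Of those 13, 12 were above 0 on both arrays and 1 was below 0 on both; over all ORFs the shares were 31.5% and 30.4%. Gene lists here and below were chosen with earlier results of these data known, so their counts describe and do not test. A looser 1.5-fold rule asked for a mean 1.5-fold or more from wt with neither array on the other side. By it, 6 of the 13 were higher and 0 lower, against 2.64% and 2.33% of all ORFs. Besides the 4 genes above, these were SPL2, an inhibitor of the low-affinity phosphate transporters, with 0.47 and 0.92 on the 2 arrays, and VTC2, another polyphosphate subunit, with 0.24 and 1.005. VTC1 averaged 0.55 ± 0.15, PHO86, needed for PHO84 to leave the endoplasmic reticulum, averaged 0.44 ± 0.07, and PHO8, the vacuolar alkaline phosphatase, averaged 0.43 ± 0.12; these 3 did not meet the rule. The member on the other side was GDE1, a glycerophosphocholine phosphodiesterase, with -0.19 and -0.74. Among 9 measured regulators of the pathway and low-affinity transporters the median was 0.23, with 7 above 0 on both arrays. There PHO3, an acid phosphatase of the PHO5 family, had 0.78 and 0.53, and PHO4 itself had 0.03 and 0.45.

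The phosphate targets were not high in ptc2 alone. PHO84 averaged 1.71 in ptc2, 0.06 in ptc1, 1.06 in ptc3, 0.74 in ptc4 and 1.37 in ptc5, each against the same wt RNA. For the target list, medians were 0.55 in ptc2, 0.09 in ptc1, 0.28 in ptc3, 0.20 in ptc4 and 0.46 in ptc5. In limma, a moderated linear model fitted across all genes, PHO84 was 0.91 higher (SE 0.42) in ptc2 than in the mean of the other 4 mutants, with an adjusted p of 0.847. That difference did not pass the test.

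Stress-response genes made up much of the lower side. HSP12, a small membrane-associated stress protein, had -2.43 and -2.83 on the 2 arrays, a mean of -2.63 ± 0.28, or 6.18-fold lower in ptc2. HSP30, a plasma membrane stress protein that lowers the activity of the proton pump, had -1.70 and -1.32, a mean of -1.51 ± 0.27. SPI1, a cell wall protein made under stress and in stationary phase, had -1.33 and -1.50, a mean of -1.42 ± 0.12. SOL4, a 6-phosphogluconolactonase of the pentose phosphate pathway, had -1.43 and -1.05. HOR7, a gene induced by high osmolarity, had -0.89 and -1.46. MSC1, a gene of little known function, had -1.11 and -1.07, so its 2 arrays were nearly equal. Each of these 6 genes was lower than wt on both arrays by more than 1.5-fold, which the 2-fold rule already asks for.

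Over the list of general stress genes, those that the transcription factors Msn2 and Msn4 switch on, the median was -0.44 for 34 of 40 members, with -0.46 on array 1 and -0.40 on array 2. Of the 34, 28 were below 0 on both arrays and 2 above 0 on both. By the 1.5-fold rule 13 were lower and 1 higher. TFS1, an inhibitor of carboxypeptidase Y, had -0.84 and -1.08. HSP26, a small heat shock chaperone, had -0.84 and -0.98. GAD1, glutamate decarboxylase, had -0.93 and -0.85, and RTC3 had -0.85 and -0.82. These 4 were lower by similar amounts on either array. The higher member was SSA4, a heat-inducible Hsp70 chaperone, with 0.34 and 0.92, which also belongs to the chaperone list below.

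Enzymes of storage carbohydrates were lower with them. Of 14 measured genes of trehalose and glycogen metabolism, 11 were below 0 on both arrays, 6 were lower by the 1.5-fold rule and none was higher; the median was -0.38, with -0.51 on array 1 and -0.25 on array 2. The 6 were GAC1, a targeting subunit of the phosphatase that activates glycogen synthase (mean -0.72 ± 0.09), GDB1, the glycogen debranching enzyme (-0.70 ± 0.15), GLG1, a glycogenin (-0.70 ± 0.20), PGM2, phosphoglucomutase (-0.67 ± 0.11), GLC3, the branching enzyme (-0.66 ± 0.12) and TSL1, a trehalose synthase subunit (-0.66 ± 0.18). The low level was not particular to ptc2, as the list medians were 0.15 in ptc1, -0.23 in ptc3, -0.38 in ptc4 and -0.34 in ptc5. GDB1, PGM2, GLC3 and TSL1 are also in the general stress list, so the lists are not separate observations. Markers of stationary phase moved in the same direction: the 5 of 9 markers measured had a median of -0.40 and ranged between -1.51 (HSP30) and 0.51 (SPG1), with 3 below 0 on both arrays and 1 above. Their part in the result was not tested, and HSP30 belongs to both sets.

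The branch of Ptc2 that acts on Hog1 was read from its output genes and from its components. Of 16 measured osmostress genes 11 were below 0 on both arrays and 2 above, with a median of -0.29. The 4 that met the 1.5-fold rule, all lower, were HSP12, HOR7, TFS1 and RTC3. All 4 were given above with the stress genes, so the lists are not separate observations. The osmostress list had medians of 0.24 in ptc1, -0.29 in ptc3, -0.29 in ptc4 and -0.17 in ptc5. Its low level was therefore not particular to ptc2. CTT1, the cytosolic catalase, had -0.25 and -0.75, and ALD3, an aldehyde dehydrogenase, had -0.49 and -0.44; neither met the rule. The components of the pathway itself were close to wt: the 12 measured had a median of -0.07, between -0.34 (STE50) and 0.24 (NBP2), and none met a size rule. PBS2, the kinase that activates Hog1, had -0.14 and -0.22. HOG1 had no value on either ptc2 array.

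The other known branches showed little. For the Rad53 checkpoint and its targets, 17 measured genes had a median of 0.03 and none met the 1.5-fold rule. RFX1, a repressor of DNA damage genes also called CRT1, came nearest, with -0.52 and -0.63. Among the ribonucleotide reductase genes that it controls, RNR2 had 0.37 and 0.21 and RNR4 had 0.15 and 0.29. RAD53 had -0.29 on array 1 and no value on array 2. For Cdc28, cyclins and other regulators of Start, 19 genes had a median of -0.02 and none met the rule; CDC28 had 0.47 and 0.00. For the unfolded protein response and folding in the endoplasmic reticulum, 22 genes had a median of 0.05, with 1 higher by the 1.5-fold rule. That gene was KAR2, the Hsp70 of the endoplasmic reticulum, with 0.32 and 0.92. Over all ORFs 2.64% were higher and 2.33% lower by the 1.5-fold rule. In lists this short, so few calls are near those shares. IRE1 had 0.06 on array 1 alone and HAC1 0.53 on array 2 alone, and the arrays do not show whether HAC1 mRNA was spliced.

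**Figure D3:**
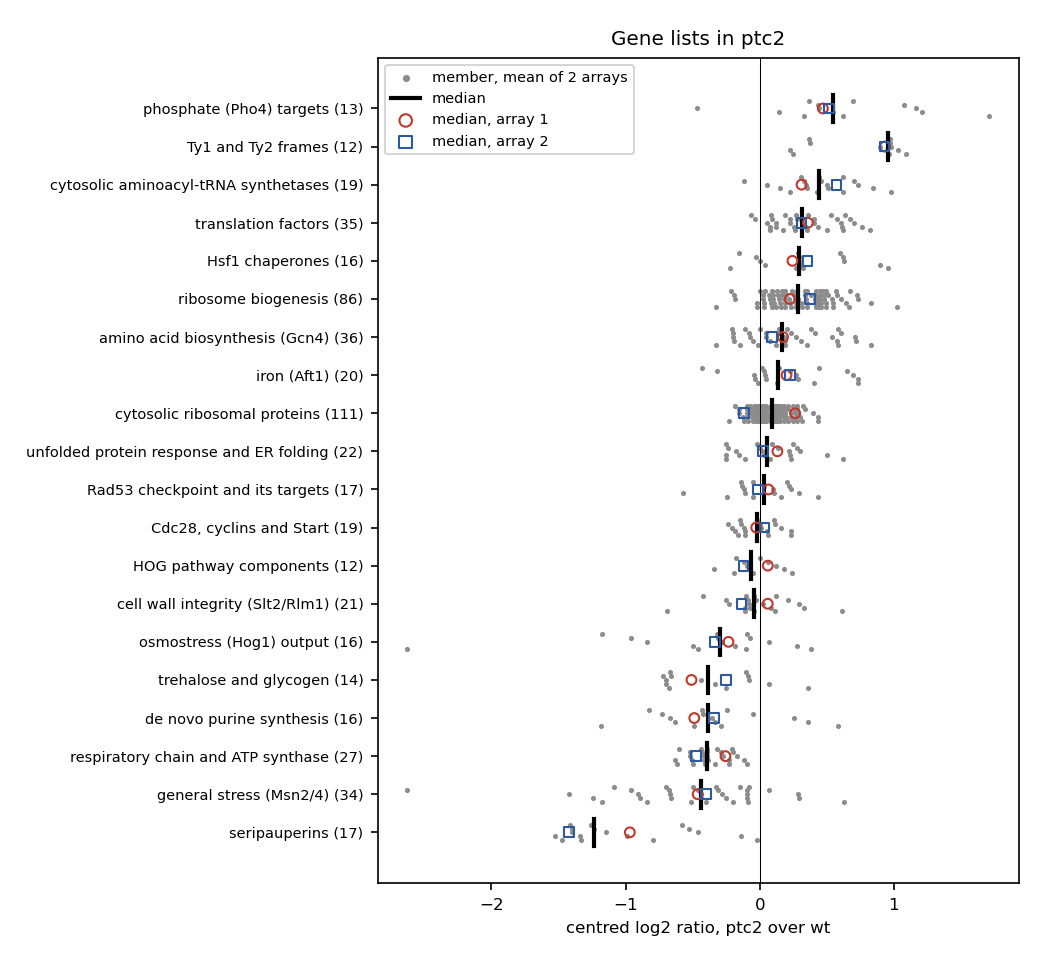
Centred log2 ratio of ptc2 over wt (x axis) for gene lists (rows, with the number of members measured on both arrays). Points are members, black bars list medians, open circles and squares the medians on arrays 1 and 2. The phosphate, Ty and translation lists lie right of 0; the stress, storage carbohydrate, purine and seripauperin lists lie left of it.

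Many stress genes lay above wt in ptc1 and below it in ptc2. HSP12 had -2.43 and -2.83 in ptc2, -2.38 and -2.46 in ptc3, -2.02 and -2.22 in ptc4 and -1.77 and -1.82 in ptc5, against 1.44 and 1.59 in ptc1. The general stress list had medians of -0.44 in ptc2, 0.21 in ptc1, -0.48 in ptc3, -0.50 in ptc4 and -0.37 in ptc5. That low level of the list in ptc2 is therefore close to that in ptc3, ptc4 and ptc5, which share the wt RNA with it. HSP30 went against this, with means of -1.51 in ptc2, -0.74 in ptc1, 0.02 in ptc3, -1.33 in ptc4 and -1.75 in ptc5. CTT1 was also below wt in ptc1, at -0.09. HSP26 differed again: its means were -0.91 in ptc2, 1.63 in ptc1, -0.87 in ptc3, -0.07 in ptc4 and 0.23 in ptc5. Against the mean of the other 4 mutants HSP12 was lower in ptc2 by a log2 difference of -1.42 (SE 1.35, adjusted p = 0.944, limma), so it did not pass.

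**Figure D4:**
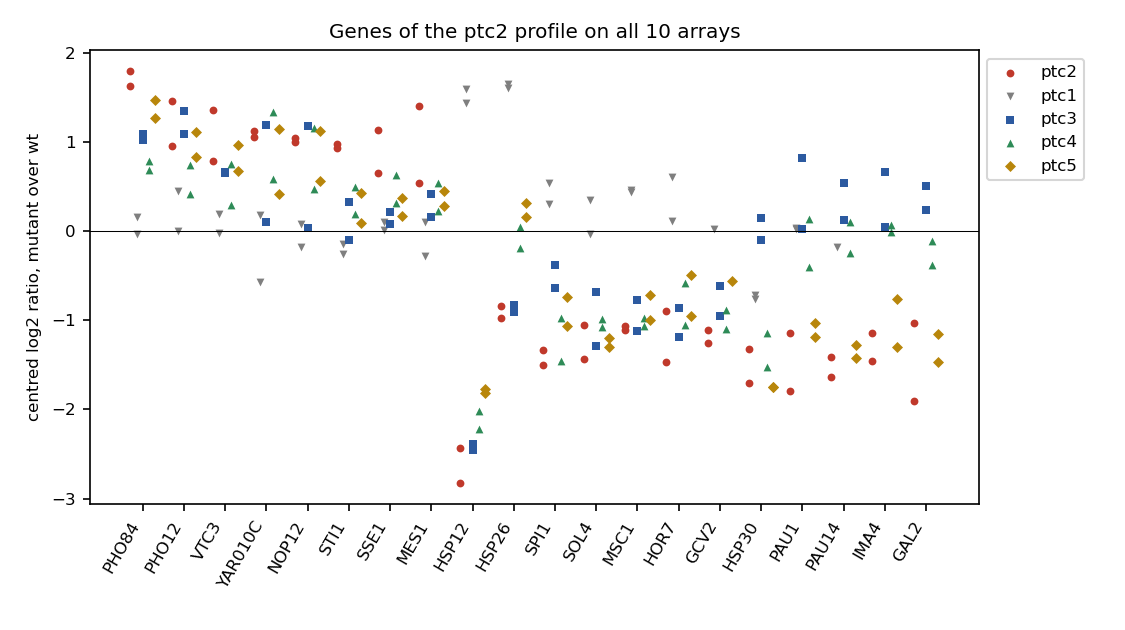
Centred log2 ratio of mutant over wt (y axis) for genes of the ptc2 profile (x axis), with both arrays of ptc2 in red and both arrays of ptc1, ptc3, ptc4 and ptc5 in the other colours. Stress genes such as HSP12 and MSC1 lie low in ptc2, ptc3, ptc4 and ptc5 and above 0 in ptc1; PAU1, PAU14, IMA4 and GAL2 lie low in ptc2 and ptc5.

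Seripauperins, small mannoproteins of the cell wall that anaerobic growth and cold are known to induce, formed the largest family among the lower genes. Of 22 PAU genes 17 had both arrays, 15 of these were below 0 on both, 12 were lower by the 1.5-fold rule and 10 by the 2-fold rule. PAU14 had -1.41 and -1.64, PAU1 had -1.15 and -1.80, and PAU12 had -1.03 and -1.79. At the other end PAU4 had 0.16 and -0.21 and PAU23 had 0.07 and -0.35, so not every member was low. The family median was -0.97 on array 1 and -1.42 on array 2, with -1.24 for the mean. The members are short, with a median length of 363 bases, and within their length class the family median was -1.11. Their probes are likely to share hybridisation, so the family is closer to 1 observation than to 17.

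The PAU genes were low in ptc2 and in ptc5, with family medians of -1.24 and -1.05. In the others the family medians were nearer wt, at 0.02 in ptc1, 0.16 in ptc3 and -0.24 in ptc4. Single members could differ between the arrays there. In ptc4 PAU24 had 0.13 and -0.71 and PAU19 had -0.49 and -0.91, and in ptc3 PAU1 had 0.82 and 0.03. Several genes outside the family had the same pattern over mutants. GAL2, the galactose permease, had -1.90 and -1.03 in ptc2 and -1.46 and -1.15 in ptc5, against 0.51 and 0.24 in ptc3 and -0.37 and -0.11 in ptc4. IMA4, an isomaltase, had -1.14 and -1.46 in ptc2 and -1.30 and -0.76 in ptc5, against 0.66 and 0.05 in ptc3 and -0.01 and 0.06 in ptc4. IMA3, its near-identical copy, averaged -1.36 ± 0.06 in ptc2. HXT11, a hexose transporter gene at a chromosome end, had -0.73 and -1.33 in ptc2, and YLR465C, a frame with no match in RefSeq, had -1.10 and -1.34. YHL049C, a frame of a chromosome end, averaged -1.01 in ptc2 and -1.30 in ptc5, against 0.40 in ptc3. In ptc1 GAL2, IMA3, IMA4 and HXT11 had no value.

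Many of the lower genes lay near chromosome ends. Of the 25 lower ORFs with a place in the RefSeq gene order, 16 (64.0%) were among the outermost 15 genes of a chromosome end, against 229 of 3878 placed ORFs (5.91%). Without the PAU and IMA families 5 of 13 (38.5%) were there. On the higher side 3 of 7 (42.9%) were, namely PHO84, PHO11 and PHO12. The 229 outermost ORFs had a median of -0.10, or -0.08 for the 212 that are not PAU or IMA genes, so the end regions as a whole lay close to wt. These shares are a description, since the families are copies of each other.

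Other nutrient genes varied. THI12, of thiamine pyrimidine synthesis, had -0.91 and -1.68 in ptc2. THI13, another thiamine gene, had -0.01 and -0.56 and met no size rule. Of 5 measured maltose and isomaltase genes 3 were lower by the 1.5-fold rule and none higher, and MAL33, a regulator of maltose genes, had 0.47 and 0.24. HXT6, a high-affinity glucose transporter, had 0.27 and 1.41, so its mean of 0.84 rests mainly on array 2. HXT6 also changed sign between the arrays of ptc3 (0.40 and -0.97) and of ptc4 (-0.23 and 0.84), while in ptc1 and ptc5 both arrays were above 0. HXT7, another hexose transporter gene, had -0.52 and -0.24 in ptc2. With HXT6 so unsteady between arrays, a difference between HXT6 and HXT7 cannot be read from these values. Genes of the iron regulon of Aft1 had a median of 0.14 over 20 members (0.20 on array 1 and 0.23 on array 2), with 12 above 0 on both arrays and 4 higher by the 1.5-fold rule. Those were the siderophore transporters SIT1 (0.82 and 0.65), ARN1 (0.66 and 0.80) and ARN2 (0.61 and 0.68) and the cell wall mannoprotein FIT3 (0.94 and 0.45). These genes were also high in ptc4 and ptc5, with means of 1.03 and 0.93 for SIT1 and 0.78 and 0.80 for ARN1. ARN2 averaged 0.81 and 0.66 there, and FIT3 averaged 1.51 and 1.53. The reductive uptake gene FET3, a multicopper oxidase, had 0.31 and 0.49 in ptc2 and did not meet the rule.

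Purine and one-carbon genes were lower. Of 16 measured, 12 were below 0 on both arrays and 3 above, 5 were lower by the 1.5-fold rule and 1 higher, and the median was -0.39. GCV2, the glycine decarboxylase subunit of the glycine cleavage complex, had -1.11 and -1.26, a mean of -1.18 ± 0.10. The other subunit genes GCV3 and GCV1 averaged -0.82 ± 0.30 and -0.63 ± 0.11. ADE1, an enzyme of purine synthesis, had -0.71 and -0.75, and MTD1, a methylenetetrahydrofolate dehydrogenase, had -0.73 and -0.62. The exception was SHM1, the mitochondrial serine hydroxymethyltransferase, with 0.44 and 0.74. The list was low in each mutant, with medians of -0.39 in ptc2, -0.26 in ptc1, -0.28 in ptc3, -0.55 in ptc4 and -0.47 in ptc5.

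Respiratory genes were lower by small amounts in nearly the whole list. Of 27 measured subunits of the respiratory chain and ATP synthase 25 were below 0 on both arrays and none above 0 on both, while 3 met the 1.5-fold rule. The median was -0.39, with -0.26 on array 1 and -0.48 on array 2. The list was not low in ptc2 alone, with medians of 0.09 in ptc1, -0.34 in ptc3, -0.42 in ptc4 and -0.45 in ptc5. These genes are short (median length 444 bases), and centred within length classes the ptc2 median was -0.28. ATP20, a subunit of ATP synthase, had -0.56 and -0.68. COX13, of cytochrome c oxidase, had -0.19 and -1.08, so its arrays lay far apart. Mitochondrial ribosomal proteins had a median of -0.13 over 42 genes, which turned positive without centring and was -0.08 within length classes; 23 were below 0 on both arrays and none met the 1.5-fold rule.

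On the higher side, genes that build and run the ribosome lay above wt by moderate amounts. Of 86 measured ribosome biogenesis factors 66 were above 0 on both arrays and 4 below, 8 were higher by the 1.5-fold rule and none lower, and the median was 0.28. The list was not high in ptc2 alone, with medians of -0.06 in ptc1, 0.235 in ptc3, 0.385 in ptc4 and 0.36 in ptc5. NOG2, a nucleolar GTPase of the large subunit, had 0.64 and 1.03 in ptc2. UTP5, of the small-subunit processome, had 0.79 and 0.68, and MPP10, another processome protein, had 0.60 and 0.85. Cytosolic ribosomal protein genes did not share this: the 111 measured had a median of 0.26 on array 1 and -0.12 on array 2, and none met the 1.5-fold rule in either direction.

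Lists of translation genes, drawn up after the values had been seen, lay higher still. Of 19 cytosolic aminoacyl-tRNA synthetases, the enzymes that charge tRNAs, 17 were above 0 on both arrays and none below, 6 were higher by the 1.5-fold rule, and the median was 0.44. MES1, for methionine, had 0.55 and 1.41, and DED81, for asparagine, had 0.62 on both arrays. YHR020W, for proline, had 0.76 and 0.92. Of 35 translation factors 30 were above 0 on both arrays and 1 below, 8 were higher by the 1.5-fold rule, and the median was 0.32. TIF4631, the initiation factor eIF4G1, had 0.59 and 1.06, and EFT2, elongation factor 2, had 0.67 and 0.60. As both lists were chosen for their values, their counts support nothing beyond the description.

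Amino acid synthesis genes that Gcn4 controls had a median of 0.17 over 36 members (0.17 on array 1 and 0.09 on array 2), with 21 above 0 on both arrays, 9 below and 4 higher by the 1.5-fold rule. Those 4 made leucine and lysine: LEU1 had 0.62 and 1.04, LEU9 had 0.54 and 0.67, LYS20 had 0.56 and 0.87 and LYS4 had 0.62 and 0.80. Glycolytic and fermentation genes had a median of 0.37 on array 1 and 0.01 on array 2, so that list moved between the arrays.

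Chaperone genes under Hsf1, the heat shock factor, differed from the general stress genes in direction. Of 16 measured, 10 were above 0 on both arrays and 1 below, 5 were higher by the 1.5-fold rule and none lower, and the median was 0.29. STI1, a cochaperone that links Hsp70 and Hsp90, had 0.93 and 0.98, a mean of 0.95 ± 0.03. SSE1, a nucleotide exchange factor for Hsp70, had 0.65 and 1.14. SSA2, a constitutive Hsp70, had 0.60 and 0.64, and HSP82, an Hsp90, had 0.56 and 0.64; SSA4 was given above. In the other mutants the list lay near wt, with medians of 0.29 in ptc2, -0.10 in ptc1, -0.02 in ptc3, -0.00 in ptc4 and 0.07 in ptc5. Most members high in ptc2 were also above wt in ptc4 and ptc5, by smaller amounts. STI1 averaged 0.34 in ptc4 and 0.26 in ptc5, SSE1 0.47 and 0.27, SSA2 0.24 and 0.28, and HSP82 0.27 and 0.19. SSA4 had 0.20 and -0.01 there. Whether the list differs between ptc2 and the others was not tested as a list, and in the limma comparison below none of its members passed.

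**Figure D5:**
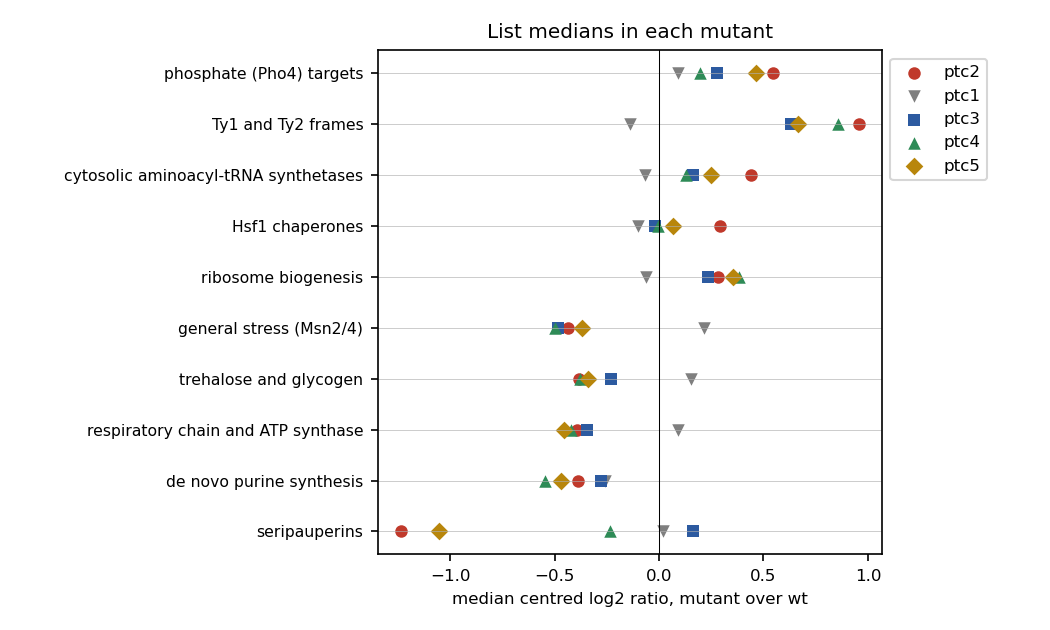
Median centred log2 ratio of mutant over wt (x axis) of 10 gene lists (rows) in ptc2 and in the other 4 mutants, which share the wt RNA. The ptc2 median is the highest of the 5 mutants for phosphate targets, Ty frames, aminoacyl-tRNA synthetases and Hsf1 chaperones, and the lowest for seripauperins. The synthetase list was chosen after seeing the ptc2 values, which favours that order, and the others with earlier results of these data known.

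Retrotransposon frames were higher in ptc2 as a group. Of 89 Ty1 and Ty2 frames listed, 12 had both arrays, and each of these was above 0 on both, with 8 higher by the 1.5-fold rule and a median of 0.96. YAR010C had 1.12 and 1.06 and YJR028W had 1.08 and 0.97. Ty copies are near identical, so these are repeats of 1 measurement. NOP12, a nucleolar protein of large-subunit rRNA processing, had 0.998 and 1.05 in ptc2. On most arrays it lay near the Ty median: on array 1 and array 2 of ptc3 it had 1.18 and 0.04, against Ty medians of 1.0025 and 0.23, and in ptc4 it had 0.47 and 1.15, against 0.45 and 1.22. In ptc5 it followed less closely, with 1.12 and 0.56 against 0.74 and 0.59. In ptc3 and ptc4 both differed between the dye-swapped arrays by more than they did in ptc2. The medians of the Ty list were 0.96 in ptc2, -0.14 in ptc1, 0.63 in ptc3, 0.86 in ptc4 and 0.67 in ptc5.

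Pathways that other phosphatases of the family are known for stayed near wt in ptc2. Of 21 measured genes of the cell wall integrity pathway 6 were above 0 on both arrays and 7 below, with a median of -0.05, beside 0.81 in ptc1. MID2, a wall stress sensor, had 0.73 and 0.50 in ptc2, and SRL3 had -0.70 and -0.69; each met the 1.5-fold rule, in opposite directions. Calcineurin targets had a median of -0.06 in ptc2 and 0.38 in ptc1. Proteasome subunits (median 0.12), sterol synthesis genes (0.12), zinc genes (0.04) and the tricarboxylic acid cycle (-0.10) held no gene past the 1.5-fold rule in ptc2. Markers of mating type, diploidy and sporulation held no gene past the 1.5-fold rule: a-cell markers had a median of 0.05 over 3 of 6 genes, haploid-specific genes 0.03 over 8 of 9 and sporulation genes -0.22 over 2 of 9. The alpha-cell list was measured in ptc2 for SAG1 alone, at -0.21. Of the selection markers used in laboratory strains 5 of 7 were measured, between -0.42 (ADE2) and -0.06 (URA3).

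KTD1, a gene of defence against a killer toxin, had -1.14 and -0.87, and YMR158W-A, a small frame of unknown function, had -1.19 and -1.05, so both were low on either array. Other ORFs lay far from wt on 1 array and nearer on the other, or had no second value. YNL034W, a gene of unknown function, met the 2-fold rule with -1.001 and -2.31, the widest gap among the genes that did. SGE1, a plasma membrane drug transporter, had 0.58 and 1.91, and MLS1, malate synthase of the glyoxylate cycle, had 0.41 and 1.91; their means passed 2-fold but array 1 did not reach 1.5-fold. Of the 573 ORFs on 1 array, the lowest after PTC2 were YGR067C with -2.06 on array 1, HXT9, a hexose transporter gene, with -2.02 on array 2, FMP33 with -1.85 on array 1 and DSF1, a mannitol dehydrogenase homologue, with -1.71 on array 2.

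A test of ptc2 was possible against the other mutants, since the shared wt RNA cancels there and the other 4 give a spread between extracts. That spread holds the effects of 4 genotypes as well, and ptc2 itself is assumed to vary like the others. In limma over the 3606 ORFs with all 10 arrays, with 5 per-mutant means and 3 residual degrees of freedom, 0 ORFs were called higher and 0 lower at an adjusted p of at most 0.05 (0%), and the smallest adjusted p was 0.828. At an unadjusted p under 0.05, 139 of the 3606 were higher and 63 lower. A share of about 0.05 of tested ORFs falls under that cutoff where nothing differs, so these counts are not calls. The smallest p was that of SEC5, a subunit of the exocyst complex of secretion, which was 0.69 higher (SE 0.12) in ptc2 than in the others. TRP5, tryptophan synthase, was 0.68 higher (SE 0.13), and RSP5, a ubiquitin ligase, 0.61 higher (SE 0.13). YGR265W, LEU1, DED81, SSA4 and YHR020W followed, with differences of 0.53 to 0.69. On the lower side were YCL022C (-0.48), FOL3 (-0.44) of folate synthesis, FLO9 (-0.70), a flocculin gene, and KOG1 (-0.44), a subunit of TORC1. Several of these differences rest mainly on array 2. On array 1 of each mutant alone they were 0.38 for SEC5, 0.37 for TRP5, 0.41 for RSP5, 0.12 for YGR265W, 0.43 for LEU1, -0.07 for FOL3, -0.15 for FLO9 and -0.27 for KOG1. Those of DED81, SSA4, YHR020W and YCL022C moved by less than 1.5 times. None of these differences passed the adjustment.

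Where the 10 arrays were fitted as samples with the array number as a block, limma called 13 ORFs higher (0.361%) and 17 lower (0.471%). That fit takes dye-swapped arrays of 1 extract for replicates, so its p-values measure technical spread alone. Its lower calls included HSP12 (-1.42, adjusted p 8.97e-05), HSP26 (-1.14, adjusted p 0.000137), SPI1 (-0.87) and the PAU genes PAU1, PAU6, PAU12, PAU19, PAU21 and PAU24. Its higher calls included PHO84 (0.91, adjusted p 0.00195), STI1 (0.83, adjusted p 0.012), SSE1, SSA2, SSA4 and NOG2. They also included PTC3 and PTC5, the genes mutated in strains that ptc2 was compared with.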

How the data were processed

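Log ratios of mutant over wt for 6212 ORFs on 10 arrays were used as the authors deposited them in 1 value table. The values are log ratios as deposited by the authors, read here as log2, an assumption. Per the labels, spots under 120 µm across or under 150 intensity units in Cy3 and Cy5 were left out by the authors. Not given in the sources used here were scanner, software, normalization, background correction and base of the logarithm. If the base were the natural logarithm, folds given here would be too small. The deposited signs were already turned to one direction: PTC2 lay below 0 on the array with a value for it, and the ptc2 arrays correlated positively. Signal intensities were not used, so dim and bright genes could not be told apart; the number of arrays limits the precision.

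Each array was centred on its median, and the 2 ptc2 arrays were averaged for the 4086 ORFs with both values. With 1 RNA extract per strain, ORFs were taken by size: a mean 2-fold or more from wt with each array 1.5-fold or more, or, for members of lists, a mean 1.5-fold or more with neither array on the other side. Against the other 4 mutants, 5 per-mutant means of 3606 ORFs were fitted by limma (version 3.58.1, R 4.3.3), with Benjamini-Hochberg adjusted p of at most 0.05. The titles call the arrays of a mutant experiments 1 and 2, and no label describes separate cultures, so the p-values cover no more than the spread among these samples. The scripts ran in Python 3.11.15 with pandas 2.3.3 and matplotlib 3.10.9, and the fits were tested on simulated data. Columns of no sample numbered 0.

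Symbols and gene order came from RefSeq's gene table of the R64 assembly; 5662 ORFs matched and 550 kept their deposited name. No array build is named, so no coordinates are given. Members and the 44 gene lists (6 of markers) were chosen with earlier results of these data known, and 3 more lists (aminoacyl-tRNA synthetases, translation factors, thiamine and pyridoxine genes) after seeing the values. Genes named are PTC1 to PTC7 and the neighbours of PTC2, up to 20 ORFs higher and 20 lower by the 2-fold rule, up to 6 members per list by size, genes of the Hog1, Rad53, Ire1 and Cdc28 branches, up to 8 and 8 genes by p in limma, and up to 5 ORFs besides PTC2 with 1 array. Others were chosen after their values were seen: KTD1, YMR158W-A, HXT11 and YHL049C, which come after the first 20 lower ORFs, SGE1, MLS1, FET3, PHO4, PAU4, PAU23, EFT2 and RNR4, and the genes named from the fit with a block.

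Array 1 and array 2 differ in dye orientation in each mutant. Array 1 minus array 2 correlated between the mutants, in each of 10 pairs (r between 0.17 and 0.67 over 3606 ORFs), and the array number was therefore treated as a pairing. Alternatives were values without centring, single arrays, ORFs with at least 1 array, scaling to the median absolute deviation, taking off the dye effect seen in the other mutants, leaving out gene families, centring within classes of gene length, and other limma fits.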

Additional observations from a re-analysis of the deposited data

Results flagged for a closer look

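Genes past the 2-fold rule in ptc2 were looked at again where both arrays of another mutant lay on the other side of wt. All differences below are the ptc2 mean minus the other mutant's mean on the log2 scale, none of them was tested, and both mutants share the wt RNA. Against ptc1, the stress genes HSP12 (-4.14), SPI1 (-1.84), HOR7 (-1.54) and MSC1 (-1.54) were below wt on both ptc2 arrays and above it on both ptc1 arrays. So were KTD1 (-1.18), YMR158W-A (-1.19) and the seripauperin genes PAU1 (-1.50), PAU19 (-1.43) and PAU5 (-1.31). For PAU1 the ptc1 mean was 0.03, so the difference is nearly the whole of the ptc2 value.

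Against ptc3, the mutant of the paralogue, the genes below wt in ptc2 and above it in ptc3 were PAU1 (-1.89), PAU14 (-1.86), PAU11 (-1.74), GAL2 (-1.84), IMA4 (-1.65) and YLR465C (-1.74). For PAU1, PAU11 and IMA4 the second ptc3 array was within 0.1 of wt.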

How the results depend on the processing

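No named gene past a size rule changed direction under the alternatives run. Both rules ask for the 2 arrays to lie on the same side of wt. Leaving out an array, scaling or leaving out families therefore could not turn a direction, and the result says little about stability. List medians that changed sign lay near 0, among them those of cytosolic and mitochondrial ribosomal proteins, the tricarboxylic acid cycle and the Hog1, Rad53, Cdc28, cell wall and calcineurin lists. Without centring, 18 ORFs were higher by the 2-fold rule (7 as reported, all of them kept), and 212 higher and 59 lower by the 1.5-fold rule (108 and 95 as reported). The list medians then moved by the same shift, to -0.17 for osmostress genes, -0.31 for general stress, 0.67 for phosphate targets, 0.41 for ribosome biogenesis, 1.09 for Ty frames, -0.26 for purine genes and 0.42 for Hsf1 chaperones. Leaving out 1 array at a time, the counts ranged from 8 to 37 higher and 25 to 36 lower by the 2-fold rule, and from 67 to 282 higher and 136 to 147 lower by the 1.5-fold rule; the high counts of higher ORFs came from array 2 alone, and a single array drops the demand that both agree. The phosphate median was then 0.47 to 0.52, the galactose median -0.55 to -0.25 and the Ty median 0.93 on either array. With ORFs on at least 1 array, 18 were higher and 42 lower by the 2-fold rule and 152 lower by the 1.5-fold rule, with medians of 0.49 for phosphate targets and 0.95 for Ty frames. Scaling to the median absolute deviation gave 12 higher by the 2-fold rule and a Ty median of 0.99, and without PAU, IMA and Ty families 15 were lower. Within length classes, an alternative chosen after seeing the data, the phosphate median was 0.59 and the Ty median 0.92. Taking off the dye effect of the other mutants cancels in the mean of 2 dye-swapped arrays, so it leaves the means the same by construction and tests nothing about them.

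Against the other 4 mutants, limma called 13 higher and 17 lower with the replicate block, 1 and 2 on 10 arrays without it, and 0 higher and 2 lower (PTC2 and KEG1) among ORFs with at least 1 array per mutant; the first pair of fits takes technical arrays for replicates. Robust, unmoderated and uncentred fits, fits on single arrays and fits without ptc1, ptc3, ptc4 or ptc5 called 0 and 0, with a smallest adjusted p between 0.281 and 0.9997.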

Other observations

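Gene groups not described above lay mostly near wt in ptc2, each given as the median of its members with both arrays. RNA polymerase I subunits had a median of 0.16 over 8 genes, histone genes -0.16 over 5 (-0.03 within their class of gene length), genes of antioxidant defence -0.16 over 19 (-0.08 on array 1 and -0.36 on array 2) with 10 below 0 on both arrays, and nitrogen-repressed genes -0.19 over 10. Drug efflux genes had a median of 0.09 over 8, and thiamine and pyridoxine genes -0.06 over 13 with 3 lower by the 1.5-fold rule. The mannoprotein genes of the TIR and DAN group had a median of -0.24 over 7, of which PAU24 and PAU23 are also seripauperins, and TIR3 averaged -0.53 ± 0.18. Galactose genes had a median of -0.32 over 5. Sulfate and methionine genes had a median of 0.05 over 14, yet SUL2, a sulfate permease, averaged -0.91. Among 5 measured genes of TORC2, a kinase complex of membrane and actin control, the median was -0.01. AVO2, a subunit of it, had 0.976 and 0.996 on the 2 ptc2 arrays. It was not high in ptc2 alone, with means of -0.10 in ptc1, 0.56 in ptc3, 0.795 in ptc4 and 0.58 in ptc5.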
